A study of Mus musculus with 12 samples.

Results

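The 10 genes described here make up the core of the circadian clock: Arntl (also called Bmal1), Clock, Per1, Per2, Per3, Cry1, Cry2, Nr1d1, Nr1d2 and Dbp. They were chosen by name out of 23337 genes in the count tables, and all 10 passed the filter on low counts in every comparison. RNA came from mouse cardiomyocytes (CMs), the beating muscle cells of the heart, in 4 groups of 3 samples and thus 12 samples in all. Neonatal-model mice were injected at postnatal day (P) 1 with AAV9-cTNT-Cre, an adeno-associated virus in which the cardiac troponin T promoter drives Cre recombinase, and their CMs were taken at P14. Adult-model mice were injected with the same virus at P60 and their CMs were taken at P90. At both stages, knockout (KO) mice were Srf-F/F, meaning that Cre can remove both alleles of Srf, which encodes serum response factor, and control (CTRL) mice were Srf-F/+, in which it can remove 1. All 4 groups therefore received Cre and carried a Cre-activated fluorescent reporter, by which the CMs were sorted, and in the study's mosaic design only part of the CMs of each heart took up the virus. The hour of the day at which hearts were collected is not given in the labels or the methods.

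The mammalian clock is a loop of transcription and repression that runs in nearly every cell. The proteins of Arntl and Clock pair, bind E-box sequences and activate the Per and Cry genes, whose proteins then return to the nucleus and inhibit that pair. The same pair activates Nr1d1 and Nr1d2, which encode the REV-ERB repressors of Arntl, and Dbp, a PAR-type bZIP factor that binds D-boxes and carries the rhythm to output genes. In tissues with a running clock, Arntl therefore peaks at about the hour at which Nr1d1, Dbp and the Per genes are low, and the level of any one of these genes depends on the hour of sampling. In the heart, the clock of the CM times genes of metabolism and of electrical excitation.

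The promoters of 4 members are shown because their RNA differed most between CTRL CMs of P14 and P90 among the members in the promoter table: Arntl and Nr1d1, which were higher at P90, and Per1 and Per3, which were lower. Each window holds 250 bases before and 50 after the RefSeq start of transcription (GRCm38.p6), read 5′ to 3′ on the strand of the gene. Arntl lies at chr7:113207261-113207560 (plus strand, the second of its start sites in the table), Nr1d1 at chr11:98775328-98775627 (minus), Per1 at chr11:69098699-69098998 (plus, the first of its start sites) and Per3 at chr4:151044616-151044915 (minus). Capitals mark the E-box CACGTG, the D-box TTATGTAA, the cyclic AMP response element (CRE) TGACGTCA and the core AGGTCA of the elements bound by ROR and REV-ERB receptors, each sought on both strands.
Arntl: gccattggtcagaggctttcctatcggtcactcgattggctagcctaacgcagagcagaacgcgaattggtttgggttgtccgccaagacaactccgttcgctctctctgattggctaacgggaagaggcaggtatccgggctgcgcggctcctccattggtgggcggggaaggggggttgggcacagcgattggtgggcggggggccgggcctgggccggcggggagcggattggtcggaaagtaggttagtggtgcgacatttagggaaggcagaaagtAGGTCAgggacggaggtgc
Nr1d1: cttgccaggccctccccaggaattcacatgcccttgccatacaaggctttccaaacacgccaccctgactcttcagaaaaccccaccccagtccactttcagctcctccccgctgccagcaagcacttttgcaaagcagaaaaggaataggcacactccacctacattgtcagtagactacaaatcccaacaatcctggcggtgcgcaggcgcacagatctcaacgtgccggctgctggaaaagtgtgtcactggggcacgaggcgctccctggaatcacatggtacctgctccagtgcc
Per1: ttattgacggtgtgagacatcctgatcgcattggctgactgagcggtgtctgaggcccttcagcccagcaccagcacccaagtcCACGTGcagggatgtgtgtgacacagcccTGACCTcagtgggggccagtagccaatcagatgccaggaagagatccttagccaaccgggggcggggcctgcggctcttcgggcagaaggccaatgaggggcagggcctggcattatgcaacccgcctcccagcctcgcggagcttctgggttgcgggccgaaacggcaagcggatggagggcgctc
Per3: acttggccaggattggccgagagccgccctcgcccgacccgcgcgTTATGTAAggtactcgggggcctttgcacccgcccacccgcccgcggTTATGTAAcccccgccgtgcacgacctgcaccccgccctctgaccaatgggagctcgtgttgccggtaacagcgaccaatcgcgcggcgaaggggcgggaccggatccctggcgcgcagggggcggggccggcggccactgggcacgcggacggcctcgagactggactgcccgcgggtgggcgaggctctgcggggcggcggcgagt
The table held 13 windows for 9 of the 10 members, Per2 being the one without an entry. The E-box stood in 2 of the 13 windows, the first of Per1 and that of Cry1, and in 7.15% of all 32851 promoters of that length. The D-box stood 2 times in the window of Per3 and in none of the other members' windows, against 0.938% of all promoters that held it. The receptor core AGGTCA was found in 4 of the 13 windows and in 16.3% of all promoters. These were the second of Arntl, the first of Clock and of Per1, and that of Nr1d2. The other windows of Arntl, Clock and Per1 held none of the marked sequences, so the windows printed for Arntl and Per1 are those with a match. The CRE was in 0 of the 13 windows, against 1.79% of all promoters, and so was the CArG box, the sequence that serum response factor binds, against 1.63%. These are matches of letters in short windows and say nothing of whether a factor binds there.

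Levels are given as CPM (counts relative to library size, after scaling by the trimmed mean of M values, TMM), as mean ± SD over the 3 samples of a group. Total counts per sample ranged from 9740389 to 23103460. The lowest count of any member in any sample was 30, for Per2, so every member was measured well above a floor of 3 counts, which is at most 0.308 CPM. Srf, the targeted gene, was at 63.9, 57.1 and 49.4 CPM in the P14 CTRL samples and at 32.1, 27.5 and 9.74 CPM in the P14 KO samples, without overlap (log2 fold change −1.30 ± 0.36 (SE), edgeR adjusted p = 0.0628, and adjusted p = 0.022 with the replicate number as a block). At P90, Srf was at 71.1, 59.1 and 81.1 CPM in CTRL and fell to 32.8, 28.9 and 28.1 CPM in KO (−1.23 ± 0.13, edgeR adjusted p = 0.00347). The summed level of 4 CM markers (Myh6, Tnnt2, Actn2 and Ryr2) was lower in KO than in CTRL without overlap at both stages. It was 48980 to 54332 CPM against 65748 to 78874 CPM at P14 and 55835 to 60028 CPM against 67271 to 76723 CPM at P90. Most of it was Myh6, at a mean of 55689 CPM in P14 CTRL, and the 4 markers did not move together. The KO to CTRL ratio of means at P14 and P90 was 0.64 and 0.73 for Myh6 and 0.75 and 0.62 for Ryr2. For Tnnt2 it was 0.88 and 1.22, and for Actn2 1.21 and 1.115. Actn2 was higher in KO without overlap at both stages, and Tnnt2 at P90. The part of these markers in the clock gene values was not tested. The summed level of 4 endothelial markers was between 130 and 305 CPM, and that of 5 macrophage markers at most 12.5 CPM, in every sample. At least 100 counts over 4 Y-linked genes were present in 1 sample each of P14 CTRL, P14 KO and P90 CTRL and in 0 of P90 KO.

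Scaled per kilobase of exon, which allows genes to be compared, the REV-ERB genes were the most abundant members in P14 CTRL CMs. Nr1d2 stood at 18.7 ± 2.88 and Nr1d1 at 18.0 ± 1.66 CPM per kb, and their samples overlapped. Cry2 followed at 10.8 ± 0.39 CPM per kb, apart from its neighbours on both sides. Clock, Cry1, Dbp, Per1, Per3 and Arntl came next, from 8.58 down to 3.81 CPM per kb, and neighbours among these 6 overlapped. Per2 was lowest, at 2.01 ± 0.43 CPM per kb, below every sample of Arntl. In P90 CTRL CMs the order was different. Nr1d1 stood alone at the top with 46.8 ± 8.24 CPM per kb, above Nr1d2 at 20.9 ± 3.62, and Arntl came next with 15.6 ± 3.21, overlapping with Nr1d2 and with Clock. The 3 Per genes were the lowest members at P90, with Per1 at 1.59 ± 0.42, Per3 at 1.12 ± 0.30 and Per2 at 0.565 ± 0.094 CPM per kb, all below every sample of the other 7 members.

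**Figure D1:**
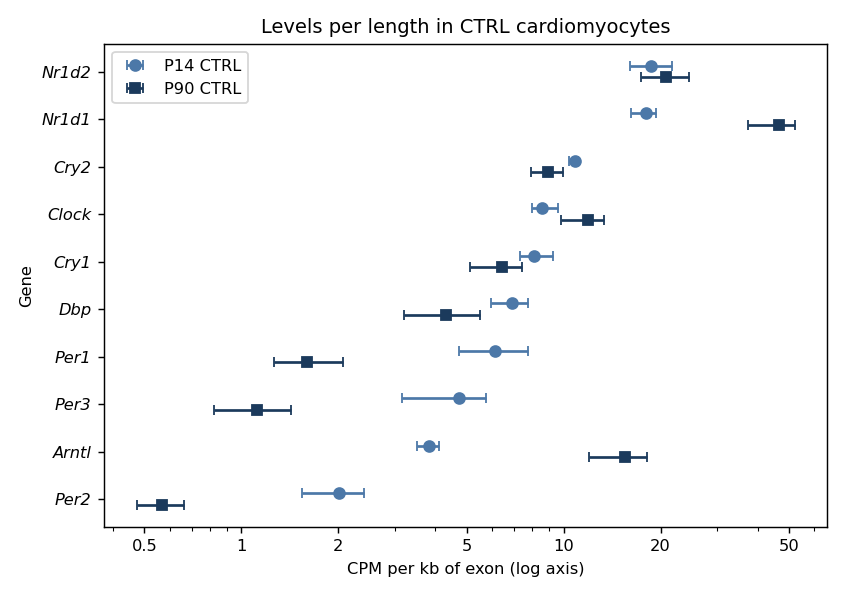
Level of each clock gene in CTRL CMs in CPM per kb of exon (log axis), with genes ordered by their P14 mean. Points are means of 3 samples and bars run from the lowest to the highest sample; Arntl and Nr1d1 lie further right at P90, and Per1, Per2 and Per3 lie further left.

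The comparison of CTRL CMs at P90 with those at P14 asks how the clock genes stand in mature CMs against CMs that are still maturing. The activator Arntl and the repressor Nr1d1 were higher at P90, and all 3 Per genes were lower. Of the 10 members, 6 passed the test, 3 higher and 3 lower, where 29.3% of the 12294 genes tested passed. Between the groups' CPM there was no overlap for 8 members, 3 higher and 5 lower, and that was the case for 44.9% of all genes. The median log2 fold change was −0.30 over the members and −0.01 over all genes tested. In RNA pooled from sorted cells, fewer cells with a transcript and less of it per cell cannot be told apart.

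Arntl, without which the loop stops, was at 11.1, 11.9 and 10.2 CPM in the P14 CTRL samples and at 34.8, 48.2 and 52.7 CPM at P90. The lowest P90 sample was thus well above the highest P14 sample, and the means differed 4.08-fold (log2 fold change 2.03 ± 0.18 (SE), edgeR adjusted p = 0.000145). Clock was at 59.9, 71.6 and 61.0 CPM at P14 and at 73.3, 99.8 and 94.4 CPM at P90. The difference of 1.39-fold passed the test narrowly (0.48 ± 0.14, edgeR adjusted p = 0.0339). It did not pass without CTRL replicate 1 or 3 of P14 (edgeR adjusted p = 0.105 and 0.0745) or without CTRL replicate 2 or 3 of P90 (0.113 for each).

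Per1, an inhibitor of the Arntl and Clock pair that also responds quickly to outside signals, was at 36.5, 22.2 and 27.9 CPM at P14 and at 9.69, 6.84 and 5.93 CPM at P90. The P14 mean was 3.85-fold the P90 mean, and no P90 sample reached the P14 range (−1.93 ± 0.24, edgeR adjusted p = 0.000819). Per2, the second inhibitor of this family, was at 14.0, 12.3 and 9.004 CPM at P14 and at 3.87, 3.26 and 2.77 CPM at P90 (−1.82 ± 0.24, edgeR adjusted p = 0.000965). Per3, whose loss has milder effects on the clock than that of the other two, was at 34.2, 18.8 and 31.3 CPM at P14 and at 8.45, 6.63 and 4.90 CPM at P90. Its P14 mean was 4.22-fold the P90 mean, the widest ratio among the members, with no overlap (−2.06 ± 0.28, edgeR adjusted p = 0.00106). The calls of Arntl, Nr1d1 and the 3 Per genes were made in all 11 fits of this comparison, the one given here and 10 that changed the test, the scaling or the filter, added a block or left out 1 sample.

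The cryptochromes, which repress together with the PER proteins, did not pass the test. Cry1 was at 22.1, 27.9 and 23.1 CPM at P14 and at 22.4, 20.3 and 15.4 CPM at P90, with overlap (−0.33 ± 0.17, edgeR adjusted p = 0.179). Cry2 was at 48.2, 45.3 and 48.4 CPM at P14 and at 43.6, 34.5 and 39.1 CPM at P90, without overlap (−0.27 ± 0.12, edgeR adjusted p = 0.129). Exons of Cry2 share 149 bp with D930015M05Rik on the other strand, and the strand setting of the counting is not stated, so reads there cannot be assigned.

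The REV-ERB genes differed from each other. Nr1d1 was at 48.3, 42.4 and 50.9 CPM at P14 and at 97.9, 137 and 134 CPM at P90, a 2.60-fold difference without overlap (1.38 ± 0.15, edgeR adjusted p = 0.000466). Nr1d2 was at 84.6, 101 and 74.5 CPM at P14 and at 95.8, 114 and 80.5 CPM at P90, with overlap (0.16 ± 0.16, edgeR adjusted p = 0.469). Dbp, the output factor, was at 11.7, 9.997 and 13.0 CPM at P14 and at 9.23, 7.17 and 5.38 CPM at P90. The groups did not overlap, but the difference missed the threshold (−0.66 ± 0.23, edgeR adjusted p = 0.0557), and the adjusted p was between 0.0269 and 0.192 over the 11 fits, 4 of which called it. Exons of Dbp share 539 of 1678 bp with Sphk2 on the other strand, which was at 20.8 ± 1.56 CPM at P14 and 31.4 ± 6.44 CPM at P90 in CTRL, so part of the reads could belong to either gene.

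The KO samples of the 2 stages, which are not part of that test, had these 5 genes in the same directions, given here without a test of their own. Arntl was 3.55-fold and Nr1d1 3.24-fold higher in KO at P90 than at P14, and Per1, Per2 and Per3 were 2.97-fold, 6.76-fold and 3.85-fold lower, each without overlap between the stages. Clock was at 67.0 ± 3.24 CPM in P14 KO and 65.7 ± 11.6 CPM in P90 KO, with overlap. Stage cannot be told apart from the age at injection, the time since injection, handling, sequencing or the hour of collection. Fibroblast and endothelial markers also differed with stage: 3 of 5 and 3 of 4 were called lower in P90 CTRL, where 1828 of the 12294 genes tested were. The fibroblast sum was 59.5 to 136 CPM in P14 CTRL and 30.9 to 42.8 CPM in P90 CTRL. The part of these markers in the clock gene values was not tested.

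**Figure D2:**
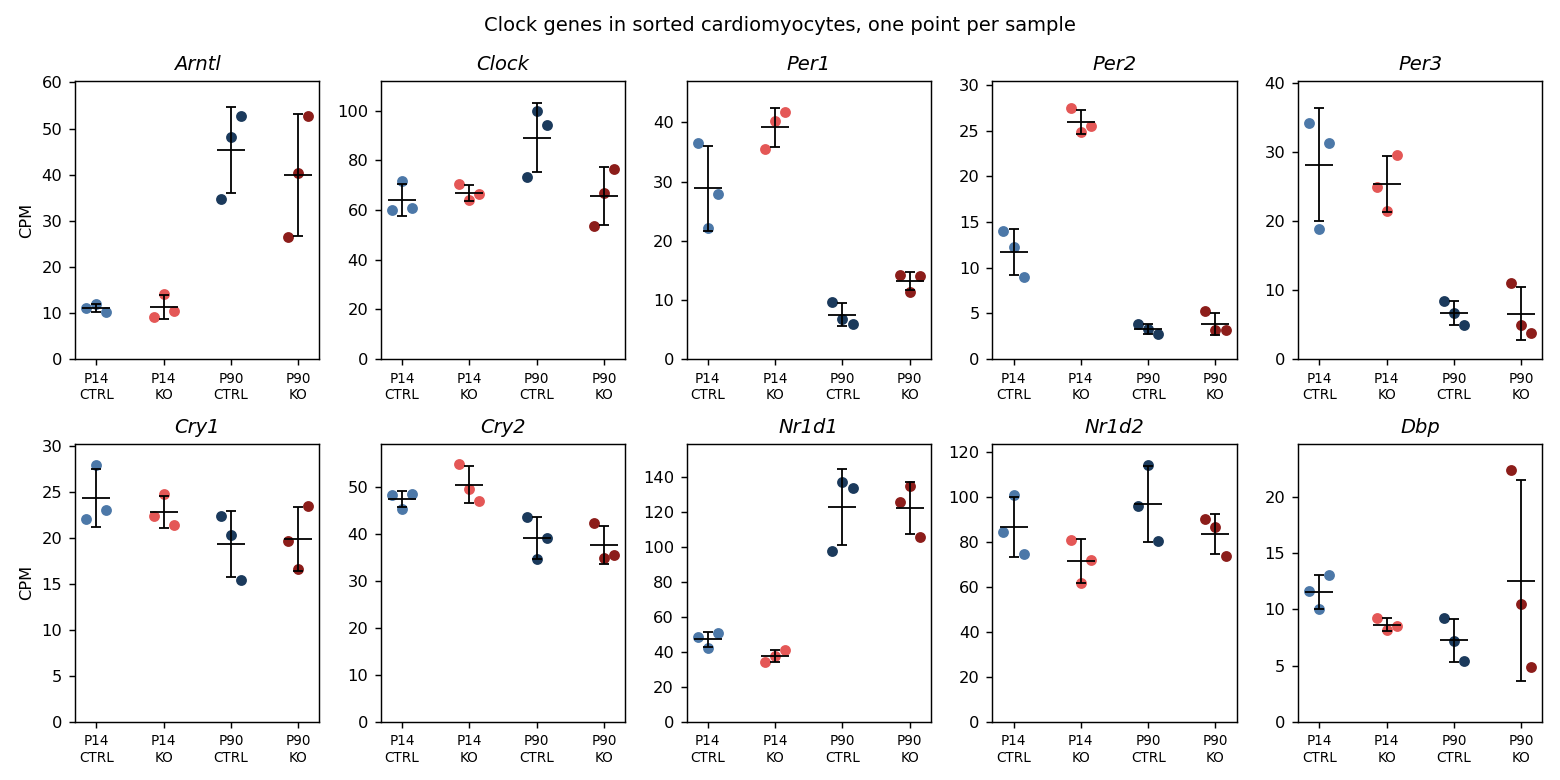
CPM (linear axis from 0) of the 10 clock genes in each of the 12 samples. Points are samples, horizontal ticks are group means and bars are SD (n = 3); Per2 is separate between CTRL and KO at P14, Per1 is separate at P90, and the 3 P90 KO samples of Dbp span 4.84 to 22.4 CPM.

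The neonatal comparison asks how these genes stand at P14 in KO against CTRL CMs, after loss of Srf from P1. The hour of collection is not given for either group, so a difference in hour cannot be told apart from genotype. Per2 was higher in KO CMs and no other member passed the test, 1 of 10 where 8.59% of the 12546 genes tested passed. Per2 was at 14.0, 12.3 and 9.004 CPM in CTRL and at 27.5, 24.9 and 25.5 CPM in KO. Every KO sample was above every CTRL sample, and the means differed 2.21-fold (1.14 ± 0.17, edgeR adjusted p = 0.0119). The call was made in 10 of 12 fits and was lost without KO replicate 1 or 2 (edgeR adjusted p = 0.0539 and 0.056), with the log2 fold change at 1.10 and 1.18. Other lists also had sums that were apart between these groups, and the 2 given here overlapped without 1 gene each. The sum of 4 mural cell markers was 73.2 to 150 CPM in CTRL and 182 to 192 CPM in KO, but without Cspg4, the 1 of 4 called (higher), it was 41.4 to 91.1 CPM and 52.1 to 77.4 CPM. Rgs5 and Pdgfrb of that list had log2 fold changes of −0.36 and −0.34. The sum of 6 glucocorticoid targets was 395 to 498 CPM in CTRL and 533 to 593 CPM in KO, but without Tsc22d3 it was 192 to 251 CPM and 226 to 293 CPM. Of these targets 0 were called by edgeR, and 1 had an unadjusted p under 0.05 (Tsc22d3), with no share of all genes at that level. DESeq2, which called 14.7% of all genes, also called 1 (Tsc22d3). No gene of either list was at 0, and the part of either list in the Per2 value was not tested.

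Per1 was at 36.5, 22.2 and 27.9 CPM in P14 CTRL and at 35.5, 40.3 and 41.8 CPM in P14 KO, with overlap through CTRL replicate 1 (0.44 ± 0.18, edgeR adjusted p = 0.164). Per3 was at 34.2, 18.8 and 31.3 CPM in CTRL and within that range, from 21.4 to 29.5 CPM, in KO. The fold changes of the activators were close to 0, with Arntl at 0.02 ± 0.19 and Clock at 0.06 ± 0.11 on the log2 scale. Arntl was spread more widely in KO (9.20, 14.2 and 10.4 CPM) than in CTRL (10.2 to 11.9 CPM). Cry1 and Cry2 differed by −0.10 ± 0.14 and 0.09 ± 0.10.

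Nr1d1 and Dbp were lower in every P14 KO sample than in every P14 CTRL sample, but neither difference passed the test. Nr1d1 was at 34.4, 37.8 and 40.9 CPM in KO against 42.4 to 50.9 CPM in CTRL (−0.33 ± 0.12, edgeR adjusted p = 0.131). Dbp was at 9.25, 8.13 and 8.53 CPM in KO against 9.997 to 13.0 CPM in CTRL (−0.42 ± 0.16, edgeR adjusted p = 0.147). In all, 3 members did not overlap between the P14 groups, 1 higher and 2 lower, which was so for 32.7% of all genes tested. Nr1d2 was at 81.0, 61.5 and 71.9 CPM in KO and 74.5 to 101 CPM in CTRL, with overlap. The median log2 fold change of the members was −0.04, against 0.00 over all genes.

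The adult comparison asks the same at P90, after loss of Srf from P60. Here too, a difference in the hour of collection cannot be told apart from genotype. By edgeR, 0 of 10 members passed, where 0.39% of the 11808 genes tested passed. An unadjusted p under 0.05 was seen for 2 (Clock and Per1), with no share of all genes at that level to set beside it. DESeq2 called 1 of 10, Per1, where it called 2.89% of 10798 genes. Per1 was at 9.69, 6.84 and 5.93 CPM in CTRL and at 14.3, 11.4 and 14.0 CPM in KO. All KO samples were above all CTRL samples and the means differed 1.76-fold (0.80 ± 0.19, edgeR adjusted p = 0.099, DESeq2 adjusted p = 0.0223). Over 12 fits the adjusted p of Per1 ranged from 0.00094 to 0.307. It was the one member without overlap at P90, where 21.6% of all genes tested did not overlap.

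Immediate early genes, which cells switch on within minutes of a stimulus, had levels between P90 groups that differed in the direction of Per1. Their 14 tested members all had a positive log2 fold change, with a median of 0.80 against 0.01 over all genes. Between the groups 8 of them did not overlap, where 21.6% of all genes did not. By edgeR 0 were called, where 0.39% of all genes were, and DESeq2 called 2 (Junb and Zfp36), where it called 2.89%. An unadjusted p under 0.05 was seen for 12, with no share of all genes at that level to set beside it. The sum of all 15 was 1007, 1597 and 1840 CPM in the P90 CTRL samples and 2020, 3555 and 2368 CPM in the P90 KO samples. At P14 the sums overlapped, at 786 to 1416 CPM in CTRL and 1070 to 1591 CPM in KO. Within P90 CTRL and within P90 KO the order of the samples ran the other way, the sum being lowest in the sample with the highest Per1 (9.69 and 14.3 CPM) and highest in the one with the lowest Per1 (5.93 and 11.4 CPM). The part of these genes in the Per1 value was not tested.

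Clock was at 73.3, 99.8 and 94.4 CPM in P90 CTRL and at 53.5, 66.9 and 76.7 CPM in P90 KO. The lowest CTRL sample lay below the highest KO sample, and the difference did not pass (−0.43 ± 0.15, edgeR adjusted p = 0.196). Arntl was at 34.8, 48.2 and 52.7 CPM in CTRL and at 26.4, 40.3 and 52.8 CPM in KO, so its KO samples reached from below the CTRL range to its top (−0.18 ± 0.22). Dbp was at 9.23, 7.17 and 5.38 CPM in CTRL and at 22.4, 10.5 and 4.84 CPM in KO. Its fitted difference was 0.79 ± 0.43 (edgeR adjusted p = 0.382), and 0.10 ± 0.32 without KO replicate 1, the sample at 22.4 CPM. Per2 (0.21 ± 0.26), Per3 (−0.03 ± 0.35), Cry1 (0.03 ± 0.17), Cry2 (−0.06 ± 0.12), Nr1d1 (0.00 ± 0.14) and Nr1d2 (−0.21 ± 0.13) overlapped between the groups. Nr1d1 was at 97.9, 137 and 134 CPM in CTRL and at 126, 135 and 106 CPM in KO, so its KO samples lay within the CTRL range.

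**Figure D3:**
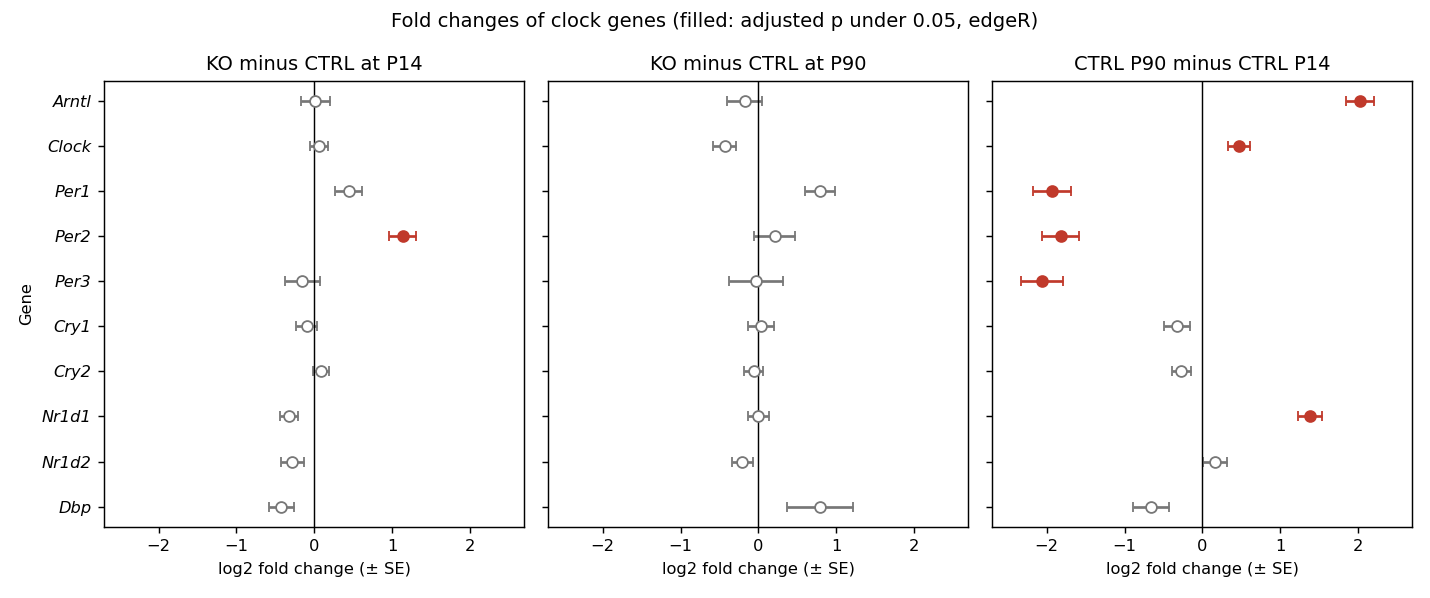
Log2 fold change of each clock gene with its SE (horizontal axis) for KO against CTRL at P14, KO against CTRL at P90, and CTRL P90 against CTRL P14. Filled red points passed edgeR's test over all genes (adjusted p under 0.05): 1 gene in the left panel, 0 in the middle and 6 in the right, where Arntl and Per3 lie farthest apart.

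Whether the effect of KO differed between the stages was tested directly as the P14 effect minus the P90 effect. Of the 10 members, 0 passed in the edgeR fit of all 12 samples, where 1.78% of 12841 genes passed, and 0 passed with DESeq2. At an unadjusted p under 0.05 there were 3, namely Clock, Per2 and Dbp, with no share of all genes at that level to set beside them. Per2, called at P14 and not at P90, differed by 0.94 ± 0.31 (edgeR adjusted p = 0.128). Clock differed by 0.50 ± 0.20 (edgeR adjusted p = 0.198), Dbp by −1.21 ± 0.54 (edgeR adjusted p = 0.248) and Per1 by −0.35 ± 0.28 (edgeR adjusted p = 0.549). The other 6 members lay between −0.32 and 0.20. Over 17 fits, 0 of which called it, the value for Per2 ranged from 0.80 to 1.23. A difference between the stages in the KO effect was thus not shown for any of these 10 members.

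Samples of the same group differed in their clock genes, with the widest ranges for Dbp and Per3 in P90 KO, where that of Dbp was 2.19 on the log2 scale. In each sample, log2 CPM of Arntl minus the mean log2 CPM of Nr1d1, Nr1d2 and Dbp was taken, as a description. It was −1.70, −1.54 and −1.83 in P14 CTRL and −1.67, −0.91 and −1.49 in P14 KO. At P90 it was −0.35, −0.00 and 0.44 in CTRL and −1.26, −0.30 and 0.65 in KO. The P14 CTRL samples thus lay within 0.29 of each other and the P90 KO samples spread over 1.91. Means were −1.69 ± 0.15 and −1.36 ± 0.40 for P14 CTRL and KO, and 0.03 ± 0.40 and −0.31 ± 0.95 for P90 CTRL and KO (SD, n = 3), so that KO and CTRL overlapped at both stages. The difference cannot be read as phase here. Nr1d1 had r = 0.099 with Arntl over deviations from group means, and both genes were higher at P90 in CTRL.

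Within groups, samples high in Arntl were low in Dbp, and the relation with Per3 had the same sign. Over the deviations of the 12 samples from their group means, Arntl and Dbp had Pearson r = −0.879 (exact permutation within groups, two-sided p = 0.00154, adjusted p = 0.0139 over the 9 members compared) and Spearman rho = −0.895 (exact permutation p = 0.00386, adjusted p = 0.0347). With P14 samples of the same number permuted together as pairs, which leaves 216 arrangements, the exact permutation p was 0.00463 for both, the smallest it can give, and the adjusted p was 0.0417, a setting chosen after the data had been seen. The 2 samples farthest from the median of Arntl were P90 KO replicates 1 and 3, and without them r was −0.795. It was −0.675 among the 6 samples of P14 and −0.958 among the 6 of P90. P90 KO replicate 1 deviated by −0.53 in Arntl and by 1.09 in Dbp on the log2 scale, and replicate 3 by 0.46 and −1.09. The members were chosen with earlier results of these data known, which limits these p-values and those for Per3 below. Genes outside the clock lay as far from Arntl, with r = −0.93 for Thap3 and −0.928 for Tbcd. Set among 9456 other genes from the highest r down, Dbp took place 9450.

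For Per3, r with Arntl was −0.853 (exact permutation p = 0.00463, adjusted p = 0.0208) and rho was −0.797 (exact permutation p = 0.0139, adjusted p = 0.0625). With the P14 pairs permuted together, the adjusted p of r for Per3 was 0.0625 by exact permutation, so that its call rests on r without that pairing. It had r = −0.68 without the same 2 samples, −0.514 at P14 and −0.967 at P90. The other 7 members did not pass: Clock had r = 0.732 (exact permutation p = 0.0586, adjusted p = 0.15), Cry2 −0.713, Per2 −0.644, Nr1d2 −0.437, Per1 −0.341, Nr1d1 0.099 and Cry1 0.075. The rank correlation with Arntl for these 7 was between −0.678 and 0.72, with adjusted p of at least 0.12 by exact permutation. Nr1d1, a direct repressor of Arntl, had r = 0.534 without the 2 farthest samples. Clock, Per2 and Per3 had r of 0.96, −0.924 and −0.967 among the 6 samples of P90 and of −0.146, 0.038 and −0.514 among the 6 of P14, a contrast that was not tested.

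**Figure D4:**
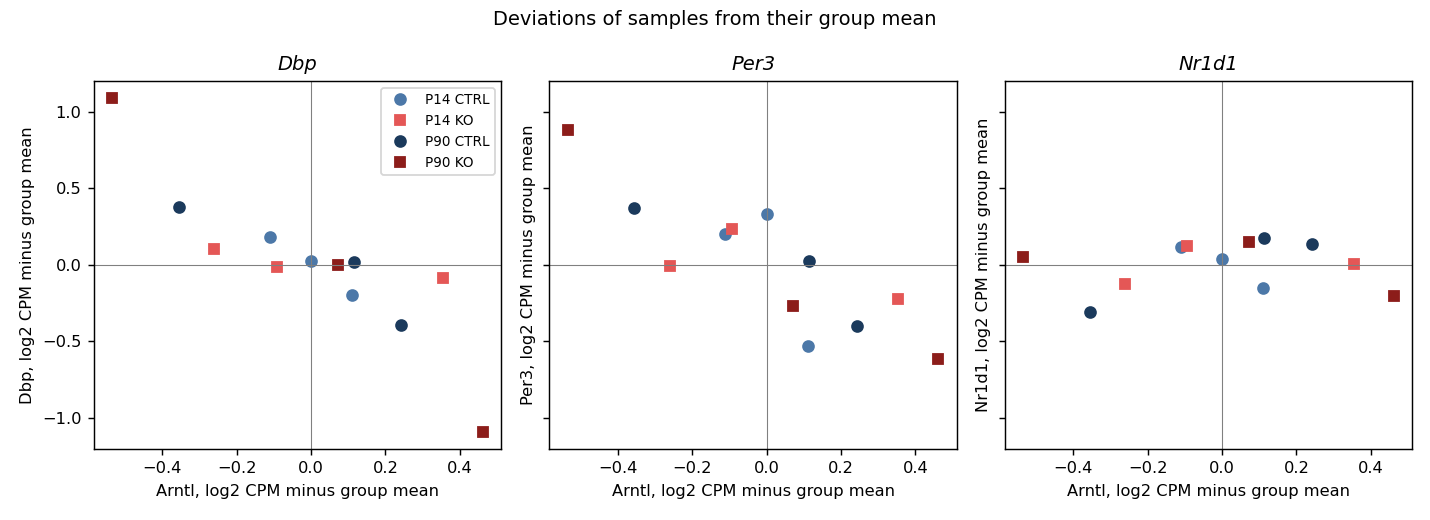
Deviation of Dbp, Per3 and Nr1d1 (vertical axes) against that of Arntl (horizontal axes) from the mean of the sample's group, in log2 CPM, for 12 samples. Circles are CTRL and squares KO; Dbp and Per3 run downward from P90 KO replicate 1 at the upper left to replicate 3 at the lower right, and Nr1d1 shows no slope.

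The libraries also differed by gene length. The slope of a library's deviations on log2 exon length was −0.0996, −0.0022 and 0.102 in P90 KO replicates 1, 2 and 3, in the order of their Arntl levels. In P14 CTRL it was 0.0421, −0.0987 and 0.0566 and in P14 KO 0.0276, −0.0501 and 0.0225, with the lowest slope in the sample with the highest Arntl of each group. In P90 CTRL it was −0.0418, 0.0422 and −0.0004. Exons of Dbp sum to 1678 bp, of Arntl to 2908 bp and of Per3 to 5953 bp. With that trend subtracted, r with Arntl was −0.881 for Dbp (exact permutation, adjusted p = 0.0208), −0.856 for Per3 (adjusted p = 0.0347) and 0.597 for Clock (adjusted p = 0.0486), a setting chosen after the data had been seen.

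Among 9456 other genes with a mean of at least 5 CPM, those whose deviations were most like those of Arntl over the 12 samples were Lrrc32 (r = 0.944), Dzip3 (0.922), Smek2 (0.921), Inpp4a (0.917) and Stag1 (0.899), and those most opposite were Thap3 (−0.93), Tbcd (−0.928), Fdft1 (−0.905), Kat5 (−0.899) and Fiz1 (−0.888). For Dbp the most alike were 5730403B10Rik (0.967), Pstk (0.949), Parp8 (0.925), Kat5 (0.92) and Tmem9 (0.912), and the most opposite Chd7 (−0.945), Atad2b (−0.943), Smek2 (−0.935), Fmo5 (−0.922) and Phf8 (−0.914). Across these genes, r with Arntl was higher for longer exons (Spearman rho 0.34) and r with Dbp was lower (rho −0.496), a description over genes that share the same 12 libraries. On the same scale Tef, a PAR bZIP factor related to Dbp, had r = −0.851 with Arntl and 0.775 with Dbp.

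Of 20 further clock genes, 19 were tested in each comparison. At P14, 0 of 19 were called by edgeR, where 8.59% of all genes were. DESeq2, which called 14.7% of all genes, called 2 (Npas2 and Nono). An unadjusted p under 0.05 was seen for 6, with no share of all genes at that level to set beside it. The 5 that did not overlap were all higher in KO. Of the 12546 genes tested, 32.7% did not overlap in either direction, and 2006 were higher in KO without overlap. Npas2, which can stand in for Clock as the partner of Arntl, was at 17.3, 11.6 and 10.2 CPM in P14 CTRL and at 24.2, 19.4 and 24.8 CPM in P14 KO. It just missed the threshold (0.80 ± 0.21, edgeR adjusted p = 0.0523) and passed it with the replicate number as a block (adjusted p = 0.0314) and by DESeq2 (adjusted p = 0.00772), with a range of 0.00772 to 0.18 over 12 fits. At P90, 0 of 19 were called by edgeR, where 0.39% of all genes were. Bhlhe40 was the 1 gene with an unadjusted p under 0.05, a level without a share of all genes here too. It was also the 1 called by DESeq2, which called 2.89% of all genes. Bhlhe40, an E-box repressor, was at 44.6 ± 8.57 CPM in CTRL and 67.6 ± 8.81 CPM in KO (0.60 ± 0.15, edgeR adjusted p = 0.0977). Nfil3, which opposes Dbp at D-boxes, was at 37.5 ± 2.94 and 37.9 ± 11.5 CPM.

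Between CTRL stages, 4 of these 19 were called lower at P90, where 1828 of the 12294 genes tested were called lower. Npas2 was lower (13.0 ± 3.73 to 5.46 ± 0.85 CPM, −1.27 ± 0.25, edgeR adjusted p = 0.00582), unlike its relative Clock, and so were Bhlhe40 (−0.80 ± 0.15, edgeR adjusted p = 0.00486), the PAR bZIP gene Hlf (32.0 ± 3.68 to 12.6 ± 2.28 CPM, −1.34 ± 0.17, edgeR adjusted p = 0.000821) and Nono, a partner of PER proteins (−0.39 ± 0.11, edgeR adjusted p = 0.0289). Tef, at 110 ± 7.93 and 99.8 ± 23.9 CPM, did not pass. In the interaction, 0 of 19 passed by edgeR, where 1.78% of all genes passed. Of the 19, 3 had an unadjusted p under 0.05, with no share of all genes at that level to set beside it. DESeq2 called 2 (Bhlhe40 and Fbxw11), and the number of all genes it called in the interaction is given in the last section.

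Of 10 genes known as outputs of the clock in the heart, edgeR called 4 in P14 KO, all lower, where 8.59% of all genes were called. DESeq2, which called 14.7% of all genes, called these 4 and Tcap, a sarcomere protein, which was at 1121 ± 23.3 CPM in CTRL and 1438 ± 111 CPM in KO (0.36 ± 0.11, edgeR adjusted p = 0.0809). Dgat2, an enzyme of triglyceride synthesis, went from 597 ± 124 to 239 ± 25.4 CPM (−1.33 ± 0.17, edgeR adjusted p = 0.00732). Kcnip2, a subunit of the potassium channel that carries the transient outward current, went from 58.1 ± 5.94 to 17.8 ± 8.89 CPM (−1.71 ± 0.34, edgeR adjusted p = 0.0227). Nampt, an enzyme of NAD synthesis, went from 93.3 ± 18.0 to 50.8 ± 9.24 CPM (−0.88 ± 0.18, edgeR adjusted p = 0.0247), and Wee1, a kinase of the cell cycle, from 24.7 ± 3.83 to 14.5 ± 0.81 CPM (−0.77 ± 0.15, edgeR adjusted p = 0.0216). The median log2 fold change of the list was −0.35, against 0.00 over all genes. This list, like the others, was chosen with earlier results of these data known. Its counts are therefore a description and no test of the list.

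At P90, Kcnip2 was the 1 output that edgeR called, where it called 0.39% of all genes, from 99.2 ± 6.17 to 50.3 ± 0.63 CPM (−0.98 ± 0.09, edgeR adjusted p = 0.00225). DESeq2, at 2.89% of all genes, called Kcnip2 and Tcap, which was at 1706 ± 109 CPM in CTRL and 2649 ± 609 CPM in KO (0.64 ± 0.15, edgeR adjusted p = 0.0888). Dgat2 was at 832 ± 82.3 CPM in CTRL and 810 ± 54.0 CPM in KO, and its KO effect differed between stages (interaction −1.28 ± 0.20, edgeR adjusted p = 0.0184), the one output for which edgeR's test passed. The interaction of Kcnip2 (−0.72 ± 0.37) and of Nampt (−0.60 ± 0.22) did not pass (edgeR adjusted p = 0.311 and 0.157). Between CTRL stages, 6 of 10 outputs passed edgeR's test, where 29.3% of all genes did: Nampt (1.33 ± 0.16), Kcnip2, Tcap and Dgat2 were higher at P90, and Usp2 (−0.96 ± 0.21) and Pdk4 (−1.28 ± 0.28) were lower.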

How the data were processed

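CMs were isolated, per the labels, by collagenase perfusion and then sorted, and libraries were made from amplified cDNA (SMART-Seq v4 and Nextera XT). The authors aligned reads to mm10 with STAR (2.5.3a in the submitters' processing notes) and deposited raw counts per gene from featureCounts (Subread 1.5.2) in 2 tables, 1 per stage. Strand and multi-mapping settings are not given in the sources used here. The 3 samples of a group are biological replicates per the series' design text. The members and lists were chosen with earlier results of these data known.

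Each comparison was fitted on all genes in edgeR 4.0.16 (R 4.3.3): filterByExpr, TMM scaling, quasi-likelihood F-test, Benjamini-Hochberg adjustment over all genes tested, threshold 0.05. SE was derived from the fold change and F. Where counts at an unadjusted p under 0.05 are given, no share of all genes at that level is given. Scripts were tested on simulated data. CPM used TMM factors over all 12 libraries, and log2 CPM a prior count of 2. DESeq2 1.42.0, the authors' tool, RLE scaling, no filter, a replicate block and leaving out each sample were alternatives. Floors of 3 counts cover counting error only, since reads carry no molecular identifiers. Promoters were RefSeq windows, of which none was used for Per2. The genes named are the members, Srf, listed clock, output, immediate early and glucocorticoid genes that were called or serve as examples, cell markers, and the 5 genes most and least like Arntl and Dbp. Ciart is listed as Gm129. A result of the list of further clock genes is not reported here. Erythroid markers (3 of 4 in the tables) summed to at most 16.0 CPM.

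KO and CTRL share replicate numbers. Deviations of same-numbered samples from their group means correlated over genes at 0.128, 0.122 and 0.444 at P14 and at 0.249, 0.010 and 0.069 at P90. From this a pairing by number was considered at P14 and not at P90. No label states a pairing. At P14, CTRL 1 with KO 2 and CTRL 2 with KO 1 gave 0.163 and 0.140, both above same-numbered pairs 1 and 2, so the numbers do not settle it. The main fits had no block, and their p-values do not use the pairing. It enters only through the replicate block, also run for the other comparisons, and the permutation of P14 pairs.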

Additional observations from a re-analysis of the deposited data

How the results depend on the processing

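Of 384 fold changes of members refitted under alternatives (all 10 members in the 3 group comparisons, and Per1, Per2, Clock and Dbp in the interaction), 349 kept their direction and their side of the threshold, 10 passed it newly, 6 lost it and 19 changed sign, each of the last among values that were not called. With the replicate block, Arntl at P14 was −0.003. Nr1d1 at P90 was −0.001 with DESeq2, −0.005 with RLE scaling and −0.006 in the fit of all 12 samples. Leaving out 1 sample each gave, at P14, −0.374 to 0.008 for Per3, −0.169 to 0.018 for Cry1 and −0.17 to 0.15 for Arntl, and at P90, −0.61 to 0.22 for Per3, −0.154 to 0.023 for Cry2, −0.15 to 0.09 for Nr1d1, −0.11 to 0.16 for Cry1, −0.427 to 0.045 for Arntl and −0.077 to 0.354 for Per2. In the interaction, values of 4 of the other 6 members changed sign over 17 fits, from −0.233 to 0.03 for Cry1, −0.187 to 0.063 for Nr1d2, −0.374 to 0.471 for Per3 and −0.01 to 0.452 for Arntl, with 0 called. The correlation of Cry1 with Arntl was −0.203 without the 2 farthest samples. At P90, the number of members called was 1 with DESeq2, 3 without the filter (Per1, Clock and Dbp) and 2 with the replicate block (Per1 and Clock, adjusted p = 0.00633 and 0.0148), and 0 in each fit that left out a sample. At P14 it was 0 to 1 on leaving out samples. Genes called at P14 were 1798 with DESeq2, 2088 in the fit of all 12 samples and 111 to 1004 on leaving out a sample, against 1078. At P90 they were 312 with DESeq2, 701 without the filter, 655 with the replicate block, 3 in the fit of all 12 samples and 6 to 51 on leaving out a sample, against 46. For the interaction they were 897 with DESeq2, 474 without the filter, 687 with the replicate block and 4 to 377 on leaving out a sample, against 228. Between CTRL stages they were 2067 to 4768 on leaving out a sample, against 3607, with 5 to 7 members. The cause of these shifts was not tested, other than that leaving out a sample leaves fewer to fit. With Dbp alone in place of the mean of Nr1d1, Nr1d2 and Dbp, the mean difference from Arntl was −0.056 in P14 CTRL, 0.353 in P14 KO, 2.63 in P90 CTRL and 1.86 in P90 KO, in the same order of stages. With 3 samples per group and single counts as low as 30 for Per2, 48 for Per3 and 61 for Dbp, small differences in these genes were not detectable.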
